A study of Mus musculus with 9 samples.

Results

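Tumour tissue from mice whose gliomas are labelled as knocked out for EZH2 was compared with cultured neural stem cells of normal mice, over all genes of a 1-colour mouse expression array. The comparison used every array whose title names it as EZH2-KO-MADM, 3 in all, and every array titled NSC, 2 in all, which makes 5 of the 9 arrays of the series. The 3 tissue arrays carry the labels glioma tissue, brain tumour, an EZH2 knockout genotype and the MADM mouse background. MADM (Mosaic Analysis with Double Markers) is a mouse design in which rare recombination between chromosomes gives mutant and wild-type sister cells in different colours. Which part of Ezh2 was deleted, the Cre driver and any other mutated gene of the tumour are not in the labels. The neural stem cells are labelled as C57BL/6J, wild type and of brain. The other 4 arrays hold glioma cells of the MADM background (2 arrays) and wild-type C57BL/6J astrocytes (2 arrays), and were used to estimate the spread and to set levels side by side. A C57BL/6J genotype is thus shared by the neural stem cells and astrocytes but not by the tumour samples.

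EZH2 is the catalytic subunit of Polycomb repressive complex 2, which places methyl groups on lysine 27 of histone H3 and so keeps developmental regulators such as Hox genes silent. EZH1 is its paralogue and can take its place in the same complex. Neural stem cells divide and give rise to neurons, astrocytes and oligodendrocytes, and gliomas can arise from such cells or from oligodendrocyte precursors. Solid tumour tissue also holds host cells, among them microglia, blood vessels, blood and the brain tissue that the tumour has invaded.

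All 3 tissue arrays lie on a different slide from the 6 arrays of cultured cells and were read with another version of the scanner software, so that Ezh2 genotype, strain, tissue against culture, slide and software cannot be told apart. Each array held 62976 spots. Of the 59305 that were not controls, 60.1 to 65.7% were well above background, and none was saturated. A level below is the log2 of a gene's signal minus the array's own 75th percentile, a difference is the tissue mean minus the neural stem cell mean of such levels, and adjusted p-values are limma's with Benjamini-Hochberg adjustment over all genes tested. The labels do not say whether the arrays of a group came from separate animals or cultures. The p-values therefore reflect the variation among these arrays alone, which may be technical between some of them. The root mean square difference was 0.80 to 0.88 log2 units within pairs of tissue arrays, 0.9991 within the neural stem cell pair, and 1.51 to 1.81 between a tissue and a neural stem cell array. The neural stem cell arrays stood apart from each other in cell cycle genes: the mean level of 17 mitosis genes was 0.73 on array 1 and 3.69 on array 2. Their mean over 16 astrocyte markers was 3.02 on array 1 and 0.71 on array 2. Since only 2 arrays represent the neural stem cells, many of the results are also given without array 2.

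Ezh2 itself was measured by a single 60-base probe near the 3′ end of its transcript (chr6:47480307-47480366, minus strand, mm9), and its signal was well above background on all 9 arrays. Its level was 1.70, 1.40 and 1.30 in the tissue and 1.98 and 3.21 in the neural stem cells. Every tissue array was below both neural stem cell arrays. The difference of -1.13 (SE 0.41) did not pass the threshold (adjusted p = 0.0915). It was -1.74 with an adjusted p of 0.03 without neural stem cell array 1, and between -1.74 and -0.51 whichever array was left out. Glioma cells stood at 2.87 and 3.08 and astrocytes at -0.00 and -0.78. Because the deleted part is not in the labels, this probe does not check the knockout. Whether host cells in the tissue carry an intact gene is not in the labels either.

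Of 24182 genes tested, 2033 were called higher in tissue (8.41%) and 2711 were called lower (11.2%), together 19.6%. Genes were called when the adjusted p was below 0.05 and the groups differed 2-fold or more. The median difference over all genes was -0.27. Tissue and neural stem cell arrays did not overlap in 54.3% of genes, 19.2% with the tissue higher and 35.1% with the tissue lower. Without neural stem cell array 2, only 889 genes were called higher and 877 lower, of which 824 and 764 were also called with all arrays. In the authors' deposited table, whose arrays are not scaled to each other, the median difference was 0.28 and the split of calls turned to 2658 higher and 754 lower. Calls of higher genes thus made up 42.9% of all calls with scaled arrays and 77.9% with unscaled arrays. The side on which most genes lie therefore depends on the scaling, and directions below are relative to each array's 75th percentile.

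**Figure D1:**
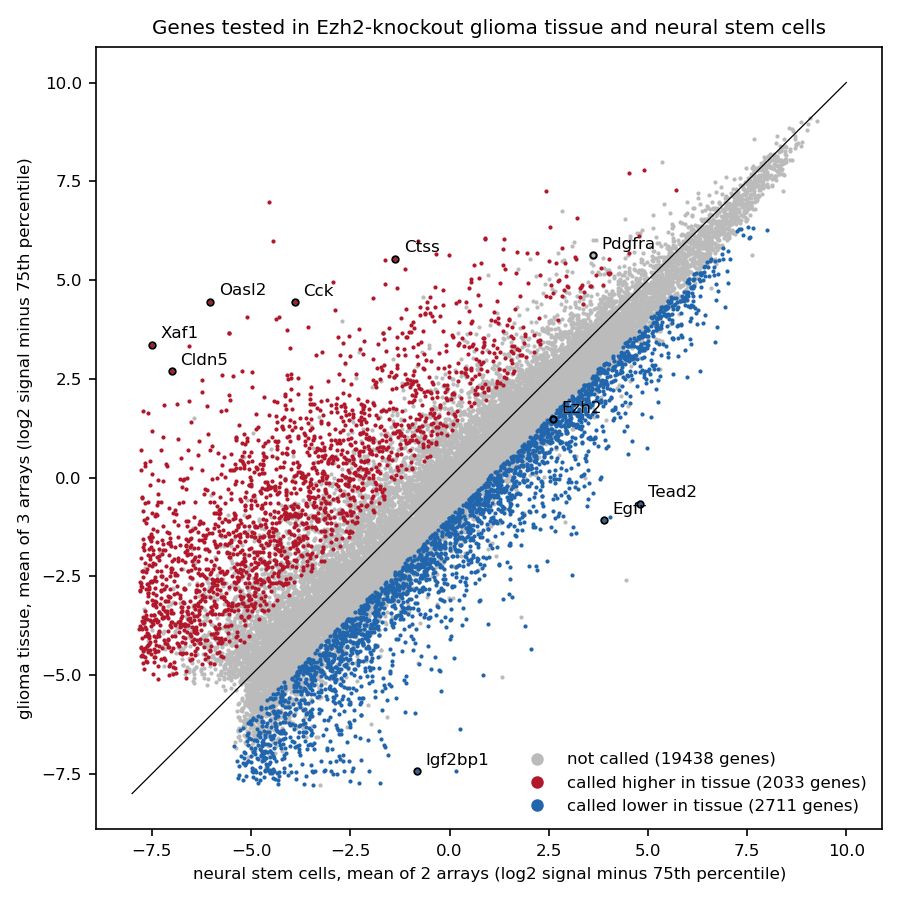
Each dot is a gene, at its mean level on the 2 neural stem cell arrays (x axis) and the 3 tissue arrays (y axis), both as log2 signal minus the array's 75th percentile; the line marks equal levels. The 2033 genes called higher in tissue include a group that lies near the bottom of the range in neural stem cells, such as Oasl2 and Cldn5, while Egfr, Tead2 and Igf2bp1 lie below the line.

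The gene lists that describe these calls are given by their counts and medians, to be read against the shares of all genes above. A member not measured in neural stem cells entered the test only because the tissue measured it, and so had to lie higher there. That holds for 4 of 22 interferon-stimulated genes, 3 of 9 MHC class II genes, 4 of 17 chemokine genes and 3 of 15 complement genes. It also holds for 6 of 16 endothelial markers, 2 of 18 microglia and macrophage markers and 3 of 6 red blood cell transcripts. Members measured on only 1 neural stem cell array, such as Oasl2, also entered through the tissue alone and are not in these counts. Counts over such lists are descriptions only. Interferon-stimulated genes had a median of 6.64 against -0.27 for all genes (6.02 with genes not measured in neural stem cells set at their lower bound). Their median was 4.56 with normexp background correction. Of the 22 listed genes, all of them tested, 19 were called higher and none lower, and 17 of them were called higher without neural stem cell array 2. In bulk samples, more cells of a type and more RNA per cell cannot be told apart.

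**Figure D2:**
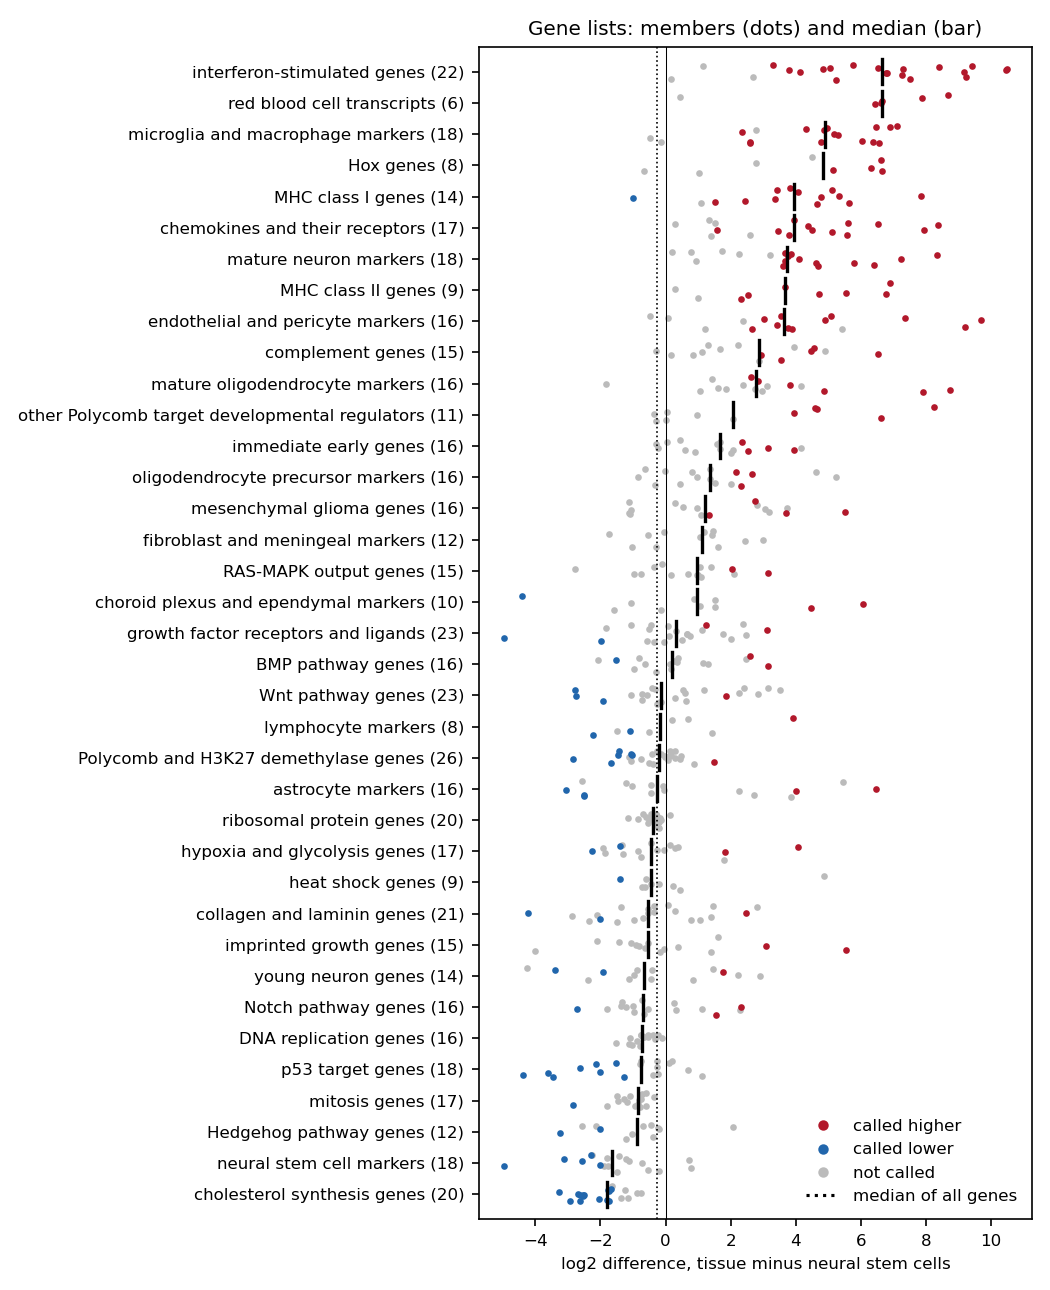
Each dot is a tested member of a gene list, placed at its log2 difference between tissue and neural stem cells (x axis), and the black bar is the list's median; numbers in brackets are members tested. Lists of interferon, red blood cell and microglia genes lie at the top, with medians of 6.64, 6.64 and 4.91, and cholesterol synthesis genes at the bottom with -1.79; sex-linked transcripts, with a median of -4.23, are not drawn.

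Oasl2, an antiviral protein of the oligoadenylate synthetase family, stood at 4.09, 5.29 and 3.98 in tissue against -4.50 and -7.56 in neural stem cells. The groups were far apart on every array, although Oasl2 was above background on only 1 of the 2 neural stem cell arrays, array 1. Its difference was 10.49 (SE 0.97, adjusted p = 0.000935), and 8.96 without neural stem cell array 2. Ifit3, Oas1a, Mal, Gjb6, Gfap, Osmr, Junb and Prm1 were also measured on only 1 of these 2 arrays, Col5a2 on 1 and Igf2bp3 on 2 of the 3 tissue arrays, so that the size of their fitted differences rests in part on signal at background. Ifit1, which binds foreign RNA, had levels of 1.37, 2.22 and 1.46 in tissue and was not well above background on either neural stem cell array. It was at least 144-fold higher in tissue (adjusted p = 0.000277). Such a bound sets the tissue mean against the dimmest signal that still counted as measured on each neural stem cell array, or the probe's own signal where that is brighter. Isg15, a ubiquitin-like protein that is attached to other proteins in the antiviral response, stood at 5.60, 6.77 and 5.57 against -0.37 and -1.21. The difference of 6.77 (SE 0.63, adjusted p = 0.000961) lay between 6.35 and 7.19 with any array left out. Irf7, a transcription factor that drives interferon production, was uneven in tissue, at 0.64, 5.98 and -0.14. Its bound of at least 199.7-fold was 53.1-fold without tissue array 2 and 443-fold without tissue array 3, and its adjusted p of 0.0125 rose to 0.0746 without neural stem cell array 2. Xaf1, an interferon-induced gene with a role in cell death, was at least 459-fold higher. This was the largest such bound among genes with a characterised symbol. The size of a bound depends on the background correction: with normexp correction it was 88.2-fold for Xaf1, below the 89.0-fold of Pnlip.

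The mean level of the whole list was 1.93, 3.24 and 1.74 on the tissue arrays, with tissue array 2 the highest. It was -3.68 and -4.03 in the neural stem cells and -3.03 and -3.56 in the glioma cells. Astrocytes, which lie on the same slide as the neural stem cells, had means of 2.60 and 1.00. The ranges of the tissue and the astrocyte arrays overlapped. Among the listed genes that were not called, Mx2 (difference 2.69, adjusted p = 0.0503) and Stat2 (1.16, adjusted p = 0.104) had no overlap between the groups, and Iigp1 had a difference of 0.18.

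Promoters of these genes are shown because the members moved together. A sequence could be matched in RefSeq (GRCm38.p6, 250 bases before to 50 bases after the start) for 15 of the 22 genes. The interferon-stimulated response element was searched on both strands as GAAANNGAAA, and 11 of the 15 promoters held it (73.3%), against 3.99% of 27025 genes with a promoter in the table. In the lines below, which give the 250 bases before the start on the gene's own strand, capitals mark the matches on either strand. They lie at chr19:34640639-34640888 for Ifit1 and chr19:34583279-34583528 for Ifit3 (both plus strand), and at chr4:156200819-156201068 for Isg15 and chr5:120907526-120907775 for Oas1a (both minus strand).
Ifit1: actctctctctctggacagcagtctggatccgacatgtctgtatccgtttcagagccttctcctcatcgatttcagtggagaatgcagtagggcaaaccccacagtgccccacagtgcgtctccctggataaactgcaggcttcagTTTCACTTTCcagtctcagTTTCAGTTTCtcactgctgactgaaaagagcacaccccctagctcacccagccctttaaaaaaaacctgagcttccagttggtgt
Ifit3: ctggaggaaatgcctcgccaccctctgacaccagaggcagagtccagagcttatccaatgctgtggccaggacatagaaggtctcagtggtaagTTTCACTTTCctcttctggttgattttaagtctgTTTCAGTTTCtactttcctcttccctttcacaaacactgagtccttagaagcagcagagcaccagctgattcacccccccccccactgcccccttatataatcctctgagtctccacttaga
Isg15: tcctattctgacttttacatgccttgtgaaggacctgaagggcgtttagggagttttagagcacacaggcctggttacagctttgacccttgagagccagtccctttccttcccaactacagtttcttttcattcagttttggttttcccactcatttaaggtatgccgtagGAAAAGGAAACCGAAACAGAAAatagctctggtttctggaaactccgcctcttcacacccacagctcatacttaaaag
Oas1a: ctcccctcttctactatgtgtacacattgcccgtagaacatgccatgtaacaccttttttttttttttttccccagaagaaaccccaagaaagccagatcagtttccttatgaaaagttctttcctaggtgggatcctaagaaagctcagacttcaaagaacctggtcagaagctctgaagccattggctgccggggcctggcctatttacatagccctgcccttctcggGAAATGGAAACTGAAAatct
Ifit1 and Ifit3 each hold 2 separate matches, Oas1a 2 that overlap and Isg15 3 that overlap. A match describes letters only and does not show that a factor binds there.

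Genes of antigen presentation were higher as well. Of 14 genes of MHC class I and its peptide supply, 12 were called higher and 1 lower, with a median difference of 3.95, and 10 were called higher without neural stem cell array 2. H2-K1, a classical class I heavy chain, stood at 5.71, 7.42 and 5.92 in tissue against 2.56 and 2.48 in neural stem cells, a difference of 3.83 (SE 0.54, adjusted p = 0.00383). The class I light chain B2m differed by 3.35 (adjusted p = 0.00193). Psmb8, a subunit of the immunoproteasome, which cuts proteins into peptides for presentation, had the largest difference of the list. It stood at 3.19, 4.29 and 3.76 against -3.29 and -4.89, a difference of 7.84 (SE 0.75, adjusted p = 0.00101). The groups did not overlap in any of these 3 genes. H2-Q4 was the member called lower, at the 2-fold limit (adjusted p = 0.0351), and leaving out any array but tissue array 3 ended that call. Class I heavy chains are near-identical copies, so their probes may share signal.

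Of 9 MHC class II genes, 7 were called higher, with a median of 3.68, and 3 of them without neural stem cell array 2. H2-Eb1, a class II beta chain, stood at -0.24, 2.41 and 0.48 in tissue and at -5.21 and -4.11 in neural stem cells. Its difference of 5.54 (SE 0.81, adjusted p = 0.00444) kept its call with any array left out. H2-Oa, which tunes peptide loading, was at least 24.6-fold higher. Ciita, the class II transactivator, had a difference of 0.28 (adjusted p = 0.58) and was not called. The CCAAT box, which is part of the class II promoter, was found in all 6 promoters that could be matched, against 41.1% of all genes. The same search found it in 13 of 15 matched promoters of mitosis genes (86.7%), so it is not particular to class II genes. The H2-Eb1 promoter (GRCm38.p6, chr17:34305617-34305866, plus strand) is given as an example, with each CCAAT box of either strand in capitals.
H2-Eb1: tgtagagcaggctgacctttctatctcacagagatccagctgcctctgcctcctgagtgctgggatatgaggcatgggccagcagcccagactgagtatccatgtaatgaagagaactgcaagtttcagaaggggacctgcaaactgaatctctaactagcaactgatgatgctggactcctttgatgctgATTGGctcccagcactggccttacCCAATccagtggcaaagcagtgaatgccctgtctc

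Chemokines, which draw immune cells into tissue, and their receptors rose in 12 of 17 genes tested, with a median of 3.94 (3.46 with bounds). Ccl5 stood at 5.09, 3.54 and 3.54 against -4.52 and -4.09, a difference of 8.36 (SE 1.05, adjusted p = 0.00251). Ccl12 was at least 157-fold higher, and Cxcl10, which interferon induces, differed by 6.51 (adjusted p = 0.0043). No chemokine was called lower, and 10 were called higher without neural stem cell array 2. Among 15 complement genes 5 were called higher, but 1 without neural stem cell array 2, 3 without tissue array 1 or 2, and 8 without either astrocyte array. C4b, a complement component, had the largest difference at 6.52, and its adjusted p rose from 0.00983 to 0.0769 without that array.

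Many markers of microglia, blood vessels, red blood cells and neurons were called higher in tissue, and few or none of lymphocytes and fibroblasts. Of 18 microglia and macrophage markers, 15 were called higher, with a median of 4.91. Tmem119, a marker of microglia, stood at 2.45, 2.97 and 2.02 in tissue against -4.13 and -3.99. Its difference of 6.54 (SE 0.51, adjusted p = 0.000573) lay between 6.30 and 6.77 with any array left out. Ctss, a lysosomal protease of these cells, stood at 5.23, 6.40 and 4.99 against -0.09 and -2.65, a difference of 6.91 (SE 0.73). C1qa, a subunit of complement C1q, differed by 7.13, and by 5.23 without neural stem cell array 2 or 9.02 without array 1. The list's mean level was -0.63 and -2.20 in neural stem cells and 2.64 and 3.28 in the cultured astrocytes. In tissue it was 2.75, 3.57 and 2.53, a range that held both astrocyte arrays. Tissue array 2 was thus highest for microglia markers, as it was for interferon-stimulated genes and MHC class I. For chemokines tissue array 1 was the highest, at 0.594, 0.255 and -0.105. Astrocytes stood at 0.486 and 0.398 for chemokines and at 3.84 and 2.90 for MHC class I, overlapping the tissue. Their complement level, 2.11 and 2.25, was above every tissue array (-0.152, 0.524 and -0.588). The part of microglia and macrophages in the interferon, MHC, chemokine and complement results was not tested. Siglech depended on the probe: the brightest of its 3 probes gave -0.48 and another gave 7.67, so no direction is given for it.

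Endothelial and pericyte markers were called higher in 11 of 16 genes, with a median of 3.65 (3.29 with bounds), and in 7 without neural stem cell array 2. Cldn5, a tight junction protein of the blood-brain barrier, stood at 2.91, 3.13 and 2.05 and was not well above background on either neural stem cell array. It was at least 289-fold higher (adjusted p = 0.000362). Rgs5, a pericyte gene, was at least 38.9-fold higher. With normexp background correction the list's median was 1.82 and the Rgs5 bound 8.63-fold. Kdr depended on the probe, with -0.47 for its brightest probe and 2.57 for another. Pecam1, a defining endothelial marker, had a difference of 0.07 and overlapping groups. Red blood cell transcripts were called higher in 5 of 6 genes. The alpha globin gene Hba-a2 stood at 6.34, 2.71 and 5.78 against -3.36 and -2.52, with a difference of 7.88 (SE 1.01, adjusted p = 0.00273), and tissue array 2 was the lowest of the tissue arrays. Globin genes are near-identical copies whose probes may share signal. The array richest in microglia markers was thus the poorest in globin.

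Mature neuron markers were called higher in 12 of 18 genes, with a median of 3.73, and none was called lower. Cck, a neuropeptide, stood at 6.13, 4.36 and 2.83 in tissue against -3.46 and -4.34, a difference of 8.34 (SE 1.01, adjusted p = 0.00218). Grin1, the obligate subunit of NMDA receptors, stood at 1.62, 0.42 and 0.84 against -2.54 and -3.25, a difference of 3.85 (SE 0.43, adjusted p = 0.00166). The list's mean level was 3.01, 1.69 and 1.13 on the tissue arrays, against -1.65 and -2.12 in neural stem cells, so that tissue array 1 was the highest for neurons. Without neural stem cell array 2 the number called was 6.

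Mature oligodendrocyte markers were called higher in 6 of 16 genes, with a median of 2.79. Mobp, a myelin protein, stood at 2.02, 3.16 and 0.43 in tissue, was not well above background in neural stem cells, and was at least 163-fold higher (adjusted p = 0.000903), or 269-fold without tissue array 3 and 105-fold without tissue array 2. Mal, another myelin protein, had a difference of 7.92, and its adjusted p was 0.0667 without neural stem cell array 2. Without that array, 2 of the 16 were called, and without array 1 there were 9. Lymphocyte markers did not rise as a group: of 16 listed genes 8 were tested, 1 was called higher (Cd79b) and 2 lower, among them Nkg7. The higher call ended without any tissue or neural stem cell array. The lower calls went to 0 without either neural stem cell array or tissue array 3, to 1 without tissue array 2 and to 3 without tissue array 1. Fibroblast and meningeal markers had no call among 12 tested in limma, and 1 had an unadjusted p below 0.05. There was 1 call without neural stem cell array 1.

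**Figure D3:**
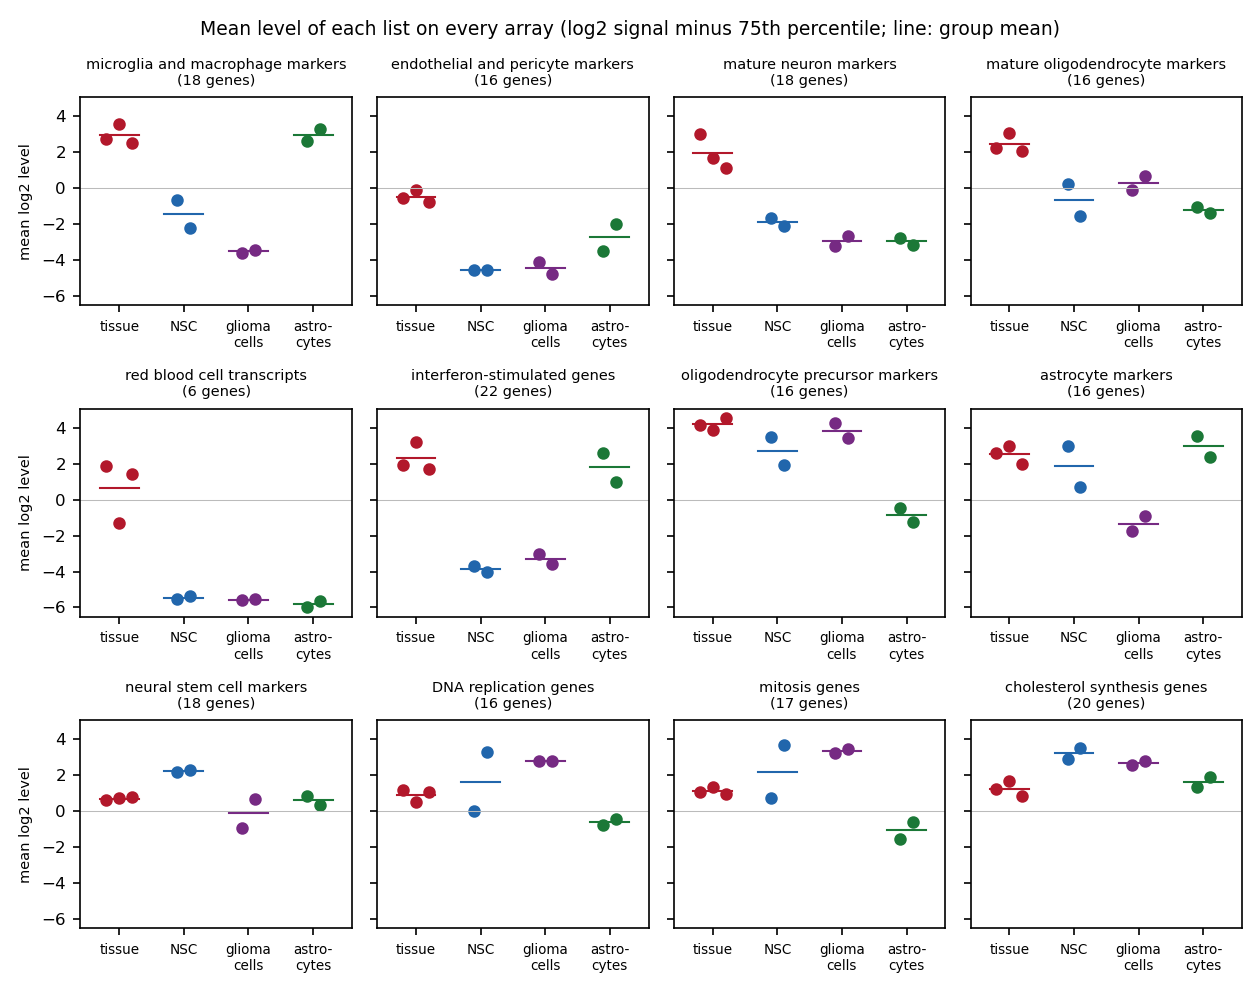
Each dot is the mean log2 level of a gene list on an array, with the group mean as a line, for tissue, neural stem cells (NSC), glioma cells and astrocytes. Microglia markers lie at 2.53 to 3.57 in tissue and at -2.20 to -0.63 in neural stem cells, while mitosis genes differ between the 2 neural stem cell arrays, 0.73 and 3.69.

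Markers of oligodendrocyte precursors were high in both groups. Their mean level was 4.18, 3.90 and 4.54 in tissue and 3.49 and 1.96 in neural stem cells, and 3 of 16 were called higher, with a median of 1.37. Pdgfra, the receptor that defines these precursors, stood at 5.87, 4.92 and 6.10 against 3.94 and 3.32. Every tissue array was above both neural stem cell arrays. The difference of 2.00 (SE 0.62) did not pass the threshold (adjusted p = 0.057), and did pass it after quantile normalization (2.26, adjusted p = 0.0337). Sox10, the lineage's transcription factor, was called at 2.33 (adjusted p = 0.0493), and Cspg4, which codes for NG2, at 2.16 (adjusted p = 0.0371). The remaining call was C1ql1 (2.66, adjusted p = 0.0423), and none of the 16 was called without neural stem cell array 2 or without any tissue array. Olig2 stood at 3.97, 2.98 and 4.26 in tissue against 4.16 and 4.59, with overlapping groups and a difference of -0.64.

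Neural stem cell markers were lower, with a median of -1.63 over 18 genes. Of these, 5 were called lower and none higher, and without neural stem cell array 2 the number was 3. Egfr, the receptor for epidermal growth factor, stood at -1.09, -0.73 and -1.39 in tissue against 3.28 and 4.51 in neural stem cells (probe at chr11:16813815-16813874, mm9). The groups were far apart, and the difference of -4.96 (SE 0.74, adjusted p = 0.00492) lay between -5.58 and -4.35 with any array left out. Glioma cells were lower still, at -4.36 and -1.87. Nr2e1, a nuclear receptor that maintains adult neural stem cells, stood at 0.49, -0.77 and -0.36 against 2.79 and 1.89, a difference of -2.55 (SE 0.43, adjusted p = 0.00738). Lhx2, a forebrain transcription factor, was at 1.97, 1.77 and 1.96 against 4.26 and 3.56 and fell by 2.01 (adjusted p = 0.0046). Emx2 (-3.13) and Sox1 (-2.29) were the other members called, and neither was called once neural stem cell array 2 was left out. Sox2 was at 1.36, 1.91 and 1.82 against 3.67 and 3.25. It was not called (adjusted p = 0.615) although the groups did not overlap, and the fit's SE of 2.32 includes a glioma cell array at -7.71. Fitted on the 5 compared arrays alone, Sox2 was called lower (-1.76, adjusted p = 0.0198). Nestin (Nes) stood at 2.88, 3.02 and 4.01 against 3.83 and 5.78, with overlapping groups.

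Astrocyte markers moved in both directions, 2 called higher and 3 lower of 16, with a median of -0.26 that became 0.28 without scaling. Sox9, shared by astrocytes and stem cells, stood at 1.14, 1.40 and 0.43 against 3.64 and 3.33, a difference of -2.49 (SE 0.41, adjusted p = 0.00675). S100b rose by 4.02 and Gjb6, a gap junction protein, by 6.46. Without neural stem cell array 2 no marker was called higher and 4 were called lower, and without array 1 there were 5 and 1. Without tissue array 1 or 3, 1 was called lower. Gfap showed how far the neural stem cell arrays differed, at 1.69 and -6.24, against 3.21, 4.34 and 1.98 in tissue, and was not called.

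Genes of DNA replication and mitosis gave no stable direction. In limma none of 16 replication genes was called, nor had any an unadjusted p below 0.05, and 1 of 17 mitosis genes (Cdk1) was called, with medians of -0.71 and -0.84. Mki67, a marker of dividing cells, stood at 2.93, 3.05 and 2.81 in tissue against 2.87 and 5.92 in neural stem cells. The tissue arrays were close to neural stem cell array 1 and far below array 2. Without array 1, 15 replication and 14 mitosis genes were called lower, with medians of -2.30 and -2.38. Without array 2, 1 replication gene was called higher and no mitosis gene was called, with medians of 0.92 and 0.49. Cdk1 itself was called at -2.84 with its brightest probe, lost that call without any array other than neural stem cell array 1, and its 3 probes ranged from -3.76 to 0.06.

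Polycomb genes and H3K27 demethylases had a median of -0.19 over 26 members, close to that of all genes and 0.35 without scaling. Of the 26, 6 were called lower and 1 higher, against 11.2% and 8.41% of all genes. Cbx8, a chromodomain subunit of Polycomb repressive complex 1 that reads methylated lysine 27, had the largest difference. It stood at -3.51, -4.09 and -2.73 in tissue against -0.60 and -0.63 in neural stem cells. The groups were clearly apart, and the difference of -2.83 (SE 0.39, adjusted p = 0.00354) lay between -3.19 and -2.51 with any array left out. Glioma cells stood at -0.33 and -0.23, also above every tissue array (difference -3.17, adjusted p = 0.00232). Cbx8 was the only member called lower in the unscaled table, and 1 member was called lower without neural stem cell array 2 or tissue array 2, 2 without tissue array 3 and 3 without tissue array 1.

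The other members called lower were Cbx2 (-1.68, adjusted p = 0.0283), Ring1 (-1.46, adjusted p = 0.0357), Eed (-1.44, adjusted p = 0.0261), Phc2 (-1.05, adjusted p = 0.0272) and Rnf2 (-1.02, adjusted p = 0.0243). Cbx2, Ring1, Phc2 and Rnf2 belong to Polycomb repressive complex 1, and Eed to the same complex as Ezh2. Adjusted p-values rose to at most 0.178, 0.12, 0.162, 0.135 and 0.116 for these 5 when an array was left out. Ezh1 was the member called higher, at 2.69, 2.85 and 2.73 in tissue against 1.91 and 0.60. Its difference of 1.50 (SE 0.44, adjusted p = 0.0472) was 0.85 without neural stem cell array 2, and its call was lost without that array, any tissue array or either astrocyte array. Suz12, a core subunit beside Ezh2, had a difference of -0.50 (adjusted p = 0.312), and the demethylase Kdm6b had -1.07 (adjusted p = 0.0576).

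Of 39 Hox genes 8 had a probe above background on all arrays of either group. For 5 of these, none of them measured in neural stem cells, the tissue alone brought the gene into the test, so that their 4 calls of higher signal are partly set by the filter and describe the arrays only. The 3 measured in both groups, Hoxa6, Hoxa7 and Hoxa9, had differences of 1.04, 4.49 and -0.67, and none was called. Hoxa3 stood at -3.43, 0.19 and 1.36 in tissue, was not well above background in neural stem cells, and was at least 28.8-fold higher (adjusted p = 0.0132), or 76.2-fold and 14.5-fold without tissue arrays 1 and 3. With normexp background correction its bound was 7.23-fold and its adjusted p 0.0713, and 1 Hox gene was called instead of 4. Tissue array 1 was the lowest for Hoxa2, Hoxa3 and Hoxa5. Without neural stem cell array 2 Hoxa3 and Hoxa5 lost their calls, and without array 1 Hoxa2 (adjusted p = 0.0621) and Hoxa5 did. Glioma cells stood at 1.12 and 1.34 for Hoxa3, and in limma no Hox gene was called between tissue and glioma cells (lowest adjusted p = 0.0886), against 17.9% of all genes.

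Of 27 other developmental regulators that Polycomb is known to silence, 11 were tested. Of these, 4 were not measured in neural stem cells and entered through the tissue alone, and all 4 were called higher, which the filter partly sets. Of the 7 measured in neural stem cells, 1 was called, Cdkn2a. Foxf1, a forkhead factor of mesoderm, stood at 0.41, 1.72 and 0.97 and was at least 91.3-fold higher than in neural stem cells, where it was not well above background. Cdkn2a, which codes for the cell cycle inhibitors INK4A and ARF, stood at 3.29, 4.48 and 4.70 against -1.81 and 0.83. The tissue was higher on every array, by 4.65 (SE 0.75, adjusted p = 0.00617), with 3.33 to 5.97 when an array was left out. Glioma cells held Foxf1 at 2.72 and 2.33 and Cdkn2a at 5.24 and 5.18, and astrocytes held Cdkn2a near the tissue level too, as the plot of Polycomb genes shows. The remaining calls, all of genes not measured in neural stem cells, were Tbx1, Gata2 and Tbx2. Leaving out neural stem cell array 2 ended the call of Tbx2 (adjusted p = 0.0693).

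**Figure D4:**
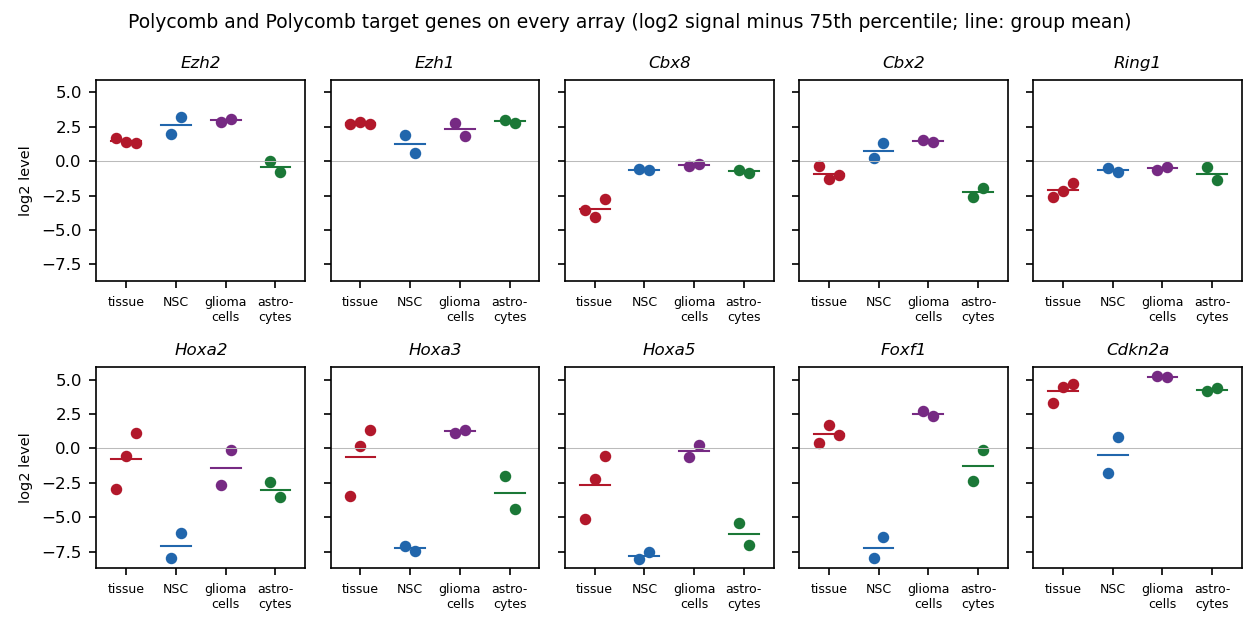
Dots are single arrays and lines group means, as log2 signal minus the array's 75th percentile, for 5 Polycomb genes (top) and 5 genes that Polycomb is known to silence (bottom). Cbx8 is lower on the tissue arrays (-4.09 to -2.73) than on all 6 others, while Hoxa3, Foxf1 and Cdkn2a are lower in neural stem cells than in glioma cells.

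Trp53 and Nf1 are tumour suppressors commonly deleted in MADM glioma models, though the labels name neither here. Trp53 had a difference of -0.43 (adjusted p = 0.497). Nf1, an inhibitor of RAS, stood at 0.20, 0.03 and -0.10 in tissue against 1.1 and 1.35, a difference of -1.18 (SE 0.26, adjusted p = 0.0186). The adjusted p was 0.0555 without tissue array 3, 0.111 without neural stem cell array 2, and 0.239 in the unscaled table, where the difference was -0.64. Of 18 p53 target genes, 8 were called lower and none higher, with a median of -0.76, and 2 were called lower without neural stem cell array 2, 4 without tissue array 2 and 5 without tissue array 1. Btg2, which restrains proliferation, stood at -1.30, -1.14 and -1.50 against 3.23 and 1.33, a difference of -3.60 (SE 0.51, adjusted p = 0.00402), with -4.55 to -2.65 when an array was left out. Cdkn1a and Mdm2, the best known p53 targets, had differences of -0.38 and -0.25 with overlapping groups. RAS-MAPK output genes were called higher in 2 of 15 (Phlda1 and Egr1), and none was called higher without neural stem cell array 1.

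Among growth factor receptors and ligands, 2 of 23 were called higher and 2 lower, or 1 and 1 without neural stem cell array 2 or tissue array 1. Pdgfb, a ligand of PDGF receptors, stood at 1.14, 0.78 and 0.26 in tissue against -3.03 and -1.74, a difference of 3.11 (SE 0.51, adjusted p = 0.00659). Hbegf, a ligand of EGFR, was called higher at 1.24 and Erbb2, a receptor of the same family, lower at -1.99, while Egfr fell by 4.96 as given above. Neither Hbegf nor Erbb2 was called once a neural stem cell array was left out. Hedgehog pathway genes had a median of -0.87, with 2 of 12 called lower. Smo, the signal transducer of that pathway, stood at 2.54, 2.44 and 2.00 against 4.09 and 4.61, a difference of -2.02 (SE 0.29, adjusted p = 0.00403), and Gli3 differed by -3.24 with an adjusted p of 0.0538 without neural stem cell array 2. Notch, BMP and Wnt pathway genes were called in both directions, 2 higher and 1 lower of 16, 2 higher and 1 lower of 16, and 1 higher and 3 lower of 23. Without neural stem cell array 2 no Notch or BMP gene was called, and without tissue array 1 or 2 none was called higher. The Wnt calls were 3 higher and 1 lower without either astrocyte array, and 1 lower without neural stem cell array 1 or 2 or tissue array 1 or 3.

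Cholesterol synthesis genes, which include sterol regulators, had a median of -1.79, with 14 of 20 called lower and none higher. Hmgcs1, which makes HMG-CoA early in the pathway, stood at 4.45, 4.29 and 4.19 in tissue against 6.83 and 7.05. The difference of -2.63 (SE 0.32, adjusted p = 0.00232) lay between -2.74 and -2.51 with any array left out. Lss, lanosterol synthase, stood at -1.54, -0.82 and -1.09 against 1.24 and 2.33, a difference of -2.93 (SE 0.45, adjusted p = 0.00524). Nsdhl, a later enzyme of the pathway, stood at -0.44, -0.37 and -0.69 against 1.90 and 2.35, a difference of -2.62 (SE 0.31, adjusted p = 0.00211). The groups did not overlap in 18 of the 20 genes, all lower in tissue, against 35.1% of all genes. The list's mean level was 1.25, 1.67 and 0.87 in tissue, 2.94 and 3.54 in neural stem cells, and 1.36 and 1.92 in astrocytes. Tissue and astrocyte ranges overlapped. Without neural stem cell array 2 the number called was 5, and without scaling it was 9. Against glioma cells, 11 of the 20 were called lower in tissue. The sterol response core, searched on both strands as TCACNCCAC after the results were seen, lay in 1 of 14 matched promoters (Hmgcs1), against 1.44% of all genes.

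Calls in the further lists are to be read against 8.41% of all genes called higher and 11.2% called lower. Immediate early genes were called higher in 4 of 16 (Egr1, Egr2, Ier3 and Junb, median 1.66) and in none without neural stem cell array 1 or tissue array 1 or 3, and in 2 without tissue array 2. Mesenchymal glioma genes were called higher in 4 of 16, led by Osmr, the oncostatin M receptor (5.50, SE 0.98, adjusted p = 0.00913), but in 1 without tissue array 2 and in 2 without tissue array 3 or neural stem cell array 1. Hypoxia and glycolysis genes were called higher in 2 and lower in 2 of 17, or 0 and 1 without neural stem cell array 2 and 1 and 1 without array 1. Collagen and laminin genes were called higher in 1 and lower in 2 of 21, with Col5a2 at -4.23 (adjusted p = 0.00214), and 5 were called lower without tissue array 2, while without neural stem cell array 2 the calls were 0 higher and 1 lower. Ribosomal protein genes had no call among 20 in limma, with all arrays or with any left out, and 4 had an unadjusted p below 0.05, with a median of -0.37 that was 0.16 without scaling. Imprinted genes were called higher in 2 of 15, Slc38a4 and Meg3, and 1 was called higher without neural stem cell array 2, any tissue array or either astrocyte array. Young neuron genes (1 higher, 2 lower of 14), choroid plexus and ependymal markers (2 higher, 1 lower of 10) and heat shock genes (1 lower of 9) completed the lists. With neural stem cell array 2 left out these calls became 0 and 1, 1 and 0, and 0. The young neuron gene called higher was also lost without any tissue or astrocyte array, the choroid gene called lower without either neural stem cell array, and the heat shock call without any array but neural stem cell array 1.

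The largest changes lay partly outside these lists. Prm1, a protamine of sperm, was above background on all tissue arrays and on neural stem cell array 2 only, with a fitted difference of 11.53 and levels of 7.48, 7.20 and 6.25 against -6.14 and -2.97. Its SE of 2.74 was large, and its call (adjusted p = 0.0245) was lost without any tissue or neural stem cell array. That SE includes the astrocyte arrays, at -2.81 and 8.31, the second above every tissue array. Pnlip, a pancreatic lipase, was at least 447-fold higher. In the other direction, Igf2bp1, an RNA-binding protein of fetal tissue, was at least 39.5-fold lower in tissue, or 22.8-fold without neural stem cell array 2 and 68.5-fold without array 1. Fndc3c1 was at least 78.8-fold lower, with 33.9-fold and 183-fold without neural stem cell arrays 2 and 1. Igf2bp3, a paralogue of Igf2bp1, fell by 6.39 (adjusted p = 0.0231), which did not pass the threshold without either of the neural stem cell arrays (adjusted p = 0.0755 and 0.114). Tead2, a transcription factor of the Hippo pathway, stood at -1.35, 0.90 and -1.53 against 4.21 and 5.38, a difference of -5.46 (SE 0.93, adjusted p = 0.0077), with an adjusted p of 0.0647 without neural stem cell array 2. Nkx2-1, a transcription factor of the ventral forebrain, was at least 19.1-fold lower.

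**Figure D5:**
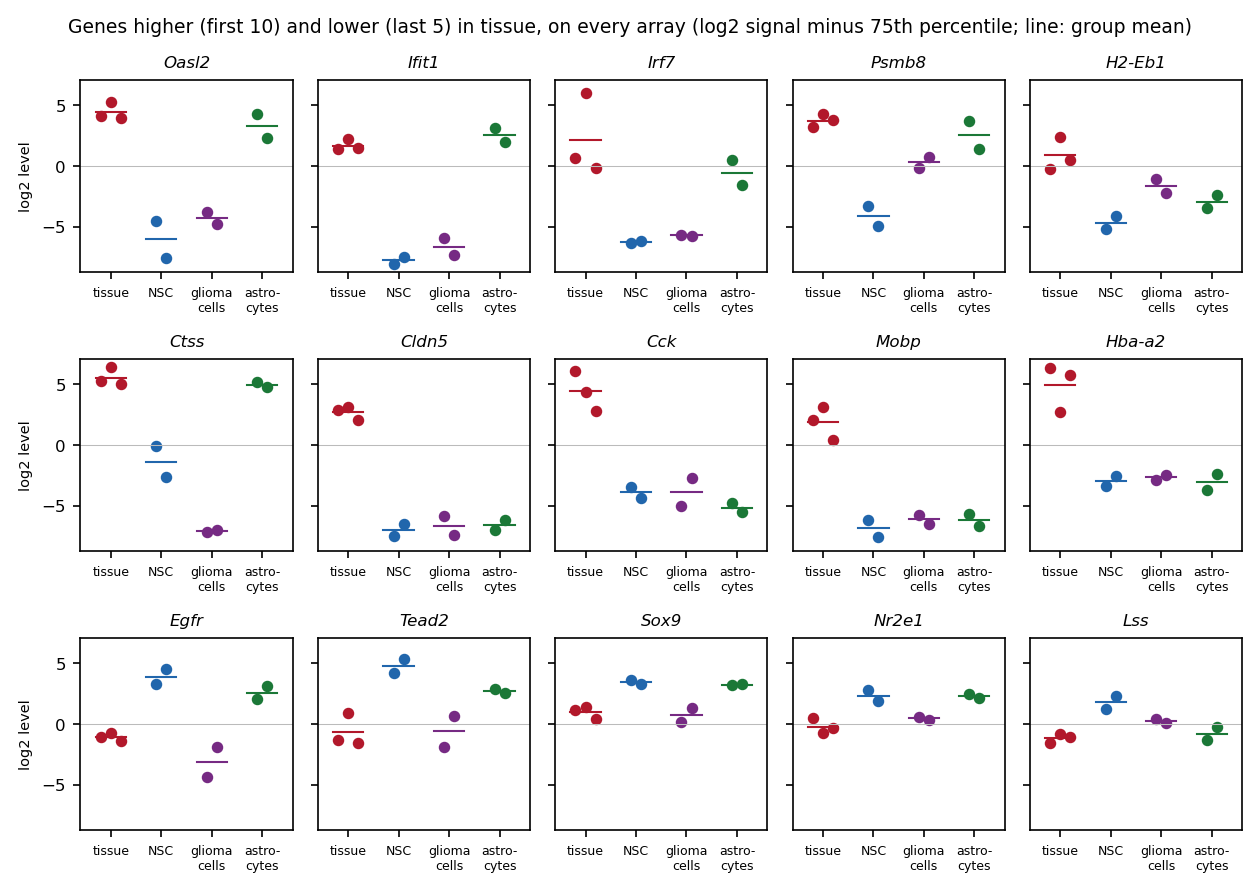
Dots are single arrays and lines group means, as log2 signal minus the array's 75th percentile, for 10 genes called higher and 5 called lower in tissue against neural stem cells. Oasl2, Psmb8 and Ctss lie high on all 3 tissue arrays and low on both neural stem cell arrays, and Irf7 is high on tissue array 2 (5.98) but not on the other two.

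Sex-linked transcripts showed that the arrays of a group are not alike in this respect. Xist, which is made by the inactive X chromosome, stood at 0.19, -7.61 and -7.73 in tissue and at 1.71 and 0.94 in neural stem cells. The Y-linked gene Eif2s3y stood at -7.65, -0.15 and -2.75 in tissue and at 2.06 and 1.55 in neural stem cells. Tissue array 1 was thus apart from arrays 2 and 3, so that the tissue arrays did not all come from 1 animal. Both neural stem cell arrays held transcripts of either kind. Of 4 sex-linked transcripts tested, limma called none, and 1 had an unadjusted p below 0.05.

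Set against glioma cells of the same background in the same fit, the tissue differed in many of the same lists. Interferon-stimulated genes were called higher in tissue than in glioma cells in 17 of 22, microglia markers in 14 of 18, endothelial markers in 10 of 16, mature neuron markers in 12 of 18 and MHC class I genes in 8 of 14, against 8.09% of all genes. For oligodendrocyte precursor markers the median difference from glioma cells was 0.05 with no call in limma (lowest adjusted p = 0.0796), against 1.37 from neural stem cells. Astrocyte markers, which moved in both directions against neural stem cells, were called higher than in glioma cells in 10 of 16, with a median of 4.60. Polycomb genes were called lower than in glioma cells in 6 of 26, against 9.83% of all genes. For Ezh2 the tissue minus glioma cell difference was -1.51 (adjusted p = 0.0416), and its call ended when any tissue or glioma cell array was left out. Both comparisons use the same 3 tissue arrays. Over all genes, 1957 were called higher and 2378 lower than in glioma cells, but 1023 and 793 without glioma cell array 1, and 1424 and 1007 without array 2.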

How the data were processed

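RNA extracted with TRIzol (200 ng per array, Cy3, per the labels' protocols) was hybridised to 1-colour Agilent mouse arrays. Intensity values were deposited by the authors as Agilent Feature Extraction output: versions 10.7.3.1 (tissue) and 10.7.1.1 (cells), protocols GE1_107_Sep09 and GE1_1105_Oct12 and mm9 probe positions, per the file headers. The processed intensity is background-subtracted by that software. The authors' deposited table of log2 values matched the unscaled log2 processed signal within 0.01 for 99.2 to 100% of values, and was an alternative.

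Control probes and outlier spots were left out, spots of a probe averaged, and log2 processed signal reduced by each array's 75th percentile. Probes well above background on all arrays of either group were tested, and a gene was its brightest such probe. Genes were named through accessions (27319 probes), symbols (3528) or synonyms (551) in the RefSeq tables, otherwise as in the files (24283). limma 3.58.1 (R 4.3.3) was fitted to all 9 arrays in 4 groups, which share an estimate of the spread. Figures and counts used Python 3.11.15.

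The rule for named genes took the 8 strongest called changes each way among characterised genes measured in both groups without overlap, the 5 strongest bounds each way, from each list at most 3 called genes each way (2 where none was called), and Pdgfra, Ezh2, Nf1 and Trp53. Further list members were named after their values were seen, and some genes that the rule took are not reported here. The comparison and the 38 lists were chosen with earlier results of these data known. On simulated data with 200 of 24182 genes changed, the fit recovered 40% at a log2 change of 2 and 84% at 4, with 8 unchanged genes called. In the data 19.6% of genes were called, and the adjustment is stricter when fewer genes change. These shares therefore do not give the recovery of the comparison itself. Alternatives were quantile normalization, normexp, the deposited table, other probe filters and combinations, other variance models, the replicate number as a block, and each array left out. Normexp used median signals, chosen after the files were seen, because the tissue files hold no mean signal. The number of arrays limits the precision.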

Additional observations from a re-analysis of the deposited data

How the results depend on the processing

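Leaving out single arrays gave 889 to 2059 genes called higher and 877 to 2764 called lower, and the lowest numbers were those without neural stem cell array 2. The stricter filter, above background in both groups, left 1118 genes called higher of 20900 tested. The deposited unscaled table called 754 lower. Normexp called 1401 higher and 2093 lower, and every bound given above was smaller with it. The Ifit1 and Cldn5 bounds fell to 30.3-fold and 60.1-fold, and those of Mobp, Ccl12 and Foxf1 to 32.9-fold, 26.8-fold and 19.2-fold. Medians with normexp were 3.78 for red blood cell transcripts, 2.27 for MHC class II, 1.91 for chemokines and 0.93 for complement genes. That of oligodendrocyte precursor markers rose to 1.44. Ezh2 was called without neural stem cell array 1 (-1.74, adjusted p = 0.03) and ranged from -1.74 to -0.51.

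Changes of sign were looked for only among the named genes and list members, where called in either of the 2 fits compared. The sign turned for Siglech (3.42) and Kdr (1.05) with the mean over probes. It also turned for Cdt1 (1.57) without neural stem cell array 2, against -2.65 without array 1. Other genes were not checked. The medians of the replication and mitosis lists also turned, to 0.92 and 0.49, without neural stem cell array 2. The cause was not tested beyond the probes' own differences.

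The replicate numbers did not pair the samples: deviations of same-numbered tissue and neural stem cell arrays correlated at 0.0171 and -0.0445. With the replicate block, 1432 genes were called higher and 1414 lower.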
